A study of Triticum aestivum with 6 samples.

Results

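Abscisic acid (ABA) is a plant hormone of drought, dormancy and root growth, and the enzymes that make it and break it down were followed here in roots of bread wheat (Triticum aestivum). Plants build ABA from carotenoids in plastids. Zeaxanthin epoxidase makes the epoxycarotenoid precursors, 9-cis-epoxycarotenoid dioxygenases (NCED) cut them to xanthoxin in the step usually held to limit the rate, and a dehydrogenase and an aldehyde oxidase finish the hormone. ABA 8'-hydroxylases, which are cytochrome P450 enzymes, start its breakdown. A gene was included when the first protein name of its best UniProt match named ABA 8'-hydroxylase, NCED, zeaxanthin epoxidase or xanthoxin dehydrogenase and its reads summed to at least 15 over the 6 libraries. The names matched 23 of the 83219 genes of the deposited table, and 16 of them reached the minimum. These 16 were 3 genes similar to ABA 8'-hydroxylase 1 of rice, 3 similar to zeaxanthin epoxidase, 5 similar to NCED1 and 5 similar to NCED3. No gene matched xanthoxin dehydrogenase. Names stand for similarity to a described protein, and bread wheat usually holds a copy of a gene on each of its A, B and D subgenomes.

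The 6 libraries came from roots of the wild type JW1, 3 with nitrate (2N) and 3 without (0N). Per the labels, all seedlings germinated for 3 days, lost their endosperm, grew for 3 days on 2 mM nitrate and for 2 days without nitrogen. For the last 3 hours the 2N seedlings stood in 2 mM of the potassium nitrate salt (written KNO in the labels) and the 0N seedlings in 2 mM KCl, so nitrate and chloride changed together and cannot be told apart. Replicates carry the numbers 1 to 3 in both groups with no word on separate cultures, so the p-values reflect how these samples vary, which may be technical.

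Library totals were 17234970 to 17645686 counts in 2N and 16208512 to 16426366 in 0N, and Spearman correlations were 0.980 to 0.986 within groups and 0.951 to 0.960 between them. Of 54313 genes tested with edgeR's quasi-likelihood test, 7.57% rose and 7.93% fell in 2N at an adjusted p under 0.05. Scaling by library totals changed this split to 2920 rises and 6208 falls, from 4109 and 4306. The tissue label is root, while a cell line label names leaf. Root marker genes summed to 5507 to 7768 TPM (transcript abundance per length, scaled to the same total in every library) in 2N and 580.2 to 705 TPM in 0N, most of it from nitrate transporters. Without these, a choice made after seeing the data, the Casparian strip and nicotianamine synthase genes summed to 235 to 308 TPM in 2N and 215 to 243 TPM in 0N, with the endodermal gene TraesCS2D02G379300, similar to Casparian strip membrane protein 1, at 56.1 ± 4.39 TPM in 2N and 37.98 ± 5.04 TPM in 0N. A list of 129 leaf photosynthesis genes, 22 of them at 0 counts in every library, summed to 148 to 289 TPM in 2N and 291 to 646 TPM in 0N, and 27 of its 70 tested genes fell while 0 rose.

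The enzymes of ABA breakdown were higher with nitrate and those of synthesis were lower or did not pass the test. Of the 16 genes 11 passed the filter on low counts. Among these 3 rose, all similar to ABA 8'-hydroxylase 1, and 4 fell, against 7.57% and 7.93% of all tested genes. The 4 were the 3 zeaxanthin epoxidase genes and 1 NCED3-like gene. The 3 rises held under every alternative run, while the falls numbered 1 with DESeq2 and 1 without 2N replicate 3. By DESeq2 5.93% of all genes rose and 6.31% fell. The median log2 fold change of the 11 was -0.30, against 0.0024 over all tested genes. The 2N and 0N libraries did not overlap for 3 of the 16 genes with 2N higher and for 8 with 2N lower, against 14.8% and 15.5% of all genes with at least 15 counts. The share with 2N higher was near that of all genes. Nothing is read from the share with 2N lower, because 4 of the 5 NCED3-like genes had fewer than 15 counts over the 2N libraries and reached the minimum through 0N. The NCED3-like gene that was tested reached the filter through its 0N libraries, so it had to be high there to be tested at all.

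**Figure D1:**
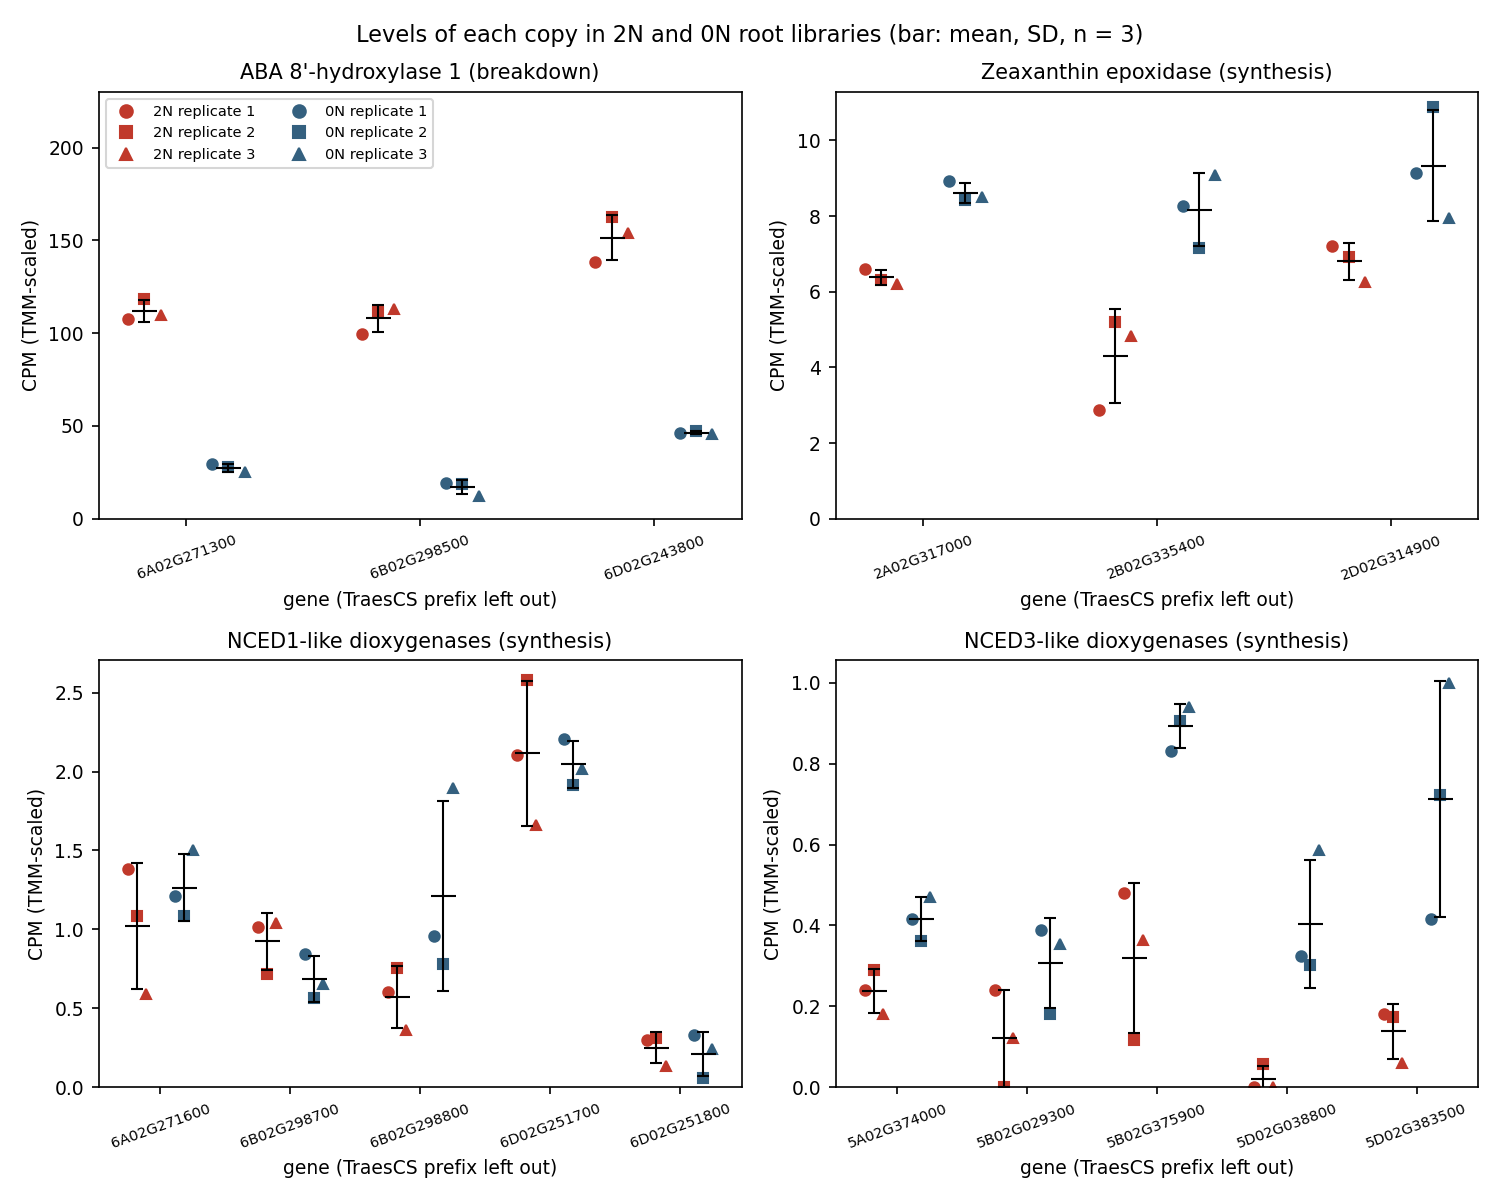
CPM (counts scaled to library size with TMM factors) of each of the 16 genes on the y axis, with 2N (red) left of 0N (blue), a symbol per replicate, and the mean with SD in black (n = 3). All 2N points of the 3 hydroxylase genes lie above all 0N points, by a wide margin, and those of the 3 zeaxanthin epoxidase genes lie below them.

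ABA 8'-hydroxylase 1 was the most abundant enzyme of the set and rose in all 3 of its copies. TraesCS6D02G243800 on chromosome 6D had 138, 162 and 154 CPM in 2N replicates 1 to 3, against 46.4, 47.2 and 45.7 CPM in 0N. TraesCS6A02G271300 on 6A had 108, 119 and 110 CPM in 2N, against 29.3, 27.8 and 24.97 CPM in 0N. TraesCS6B02G298500 on 6B had 99.8, 112 and 113 CPM in 2N, against 19.5, 18.8 and 12.5 CPM in 0N. In each copy the lowest 2N library stood at more than double the highest 0N library. The log2 fold change of the 6D copy was 1.71 ± 0.10 (SE; edgeR adjusted p = 2.4e-08), and 99.2% of all tested genes had a smaller value. It was 2.03 ± 0.10 for the 6A copy (adjusted p = 4.7e-09) and 2.68 ± 0.15 for the 6B copy (adjusted p = 1.9e-07). Summed over the copies, the level was 346, 393 and 377 CPM in 2N and 95.2, 93.8 and 83.2 CPM in 0N, a ratio of means of 4.10. In a bulk root sample, more cells that express a gene and more RNA per cell cannot be told apart.

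The share of each copy in the summed level was compared next. Their lengths as used by the authors were alike, since each had 33.5 to 34.9 counts per TPM, so their TPM values can be set side by side. In 2N they stood at 74.1 ± 6.37 (6D), 53.6 ± 3.70 (6B) and 53.1 ± 3.18 TPM (6A), and in 0N at 24.4 ± 0.63 (6D), 9.04 ± 2.08 (6B) and 13.98 ± 1.31 TPM (6A; SD, n = 3). The 6D copy was the highest in each of the 6 libraries, while the 6A and 6B copies differed by less than their spread in 2N and not in 0N. The 6B copy gave 29.5%, 29.0% and 30.6% of the summed TPM in 2N libraries, against 20.9%, 20.5% and 15.4% in 0N libraries. The 6D copy gave 40.9% ± 0.69 in 2N and 51.6% ± 3.27 in 0N, and the 6A copy 29.4% ± 0.98 in 2N and 29.5% ± 0.56 in 0N. The log2 ratio of the 6B to the 6D copy was -0.49 ± 0.05 in 2N and -1.48 ± 0.34 in 0N, a difference of 1.00 with no overlap between libraries. An exact 2-sided permutation test gave p = 0.1, the smallest that 3 against 3 libraries allow, and 0.18 after Benjamini-Hochberg adjustment over the 11 pairs of copies compared, so no pair could pass. The 6A to 6B ratio differed by -0.66 and the 6A to 6D ratio by 0.33, also without overlap (exact permutation p = 0.1 each). All 18 counts of these copies were fractions, yet their sum lay within 0.02 of a whole number in each library. A division of reads among the copies leaves the sum as it is but can move the shares, and its part in the shares was not tested.

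**Figure D2:**
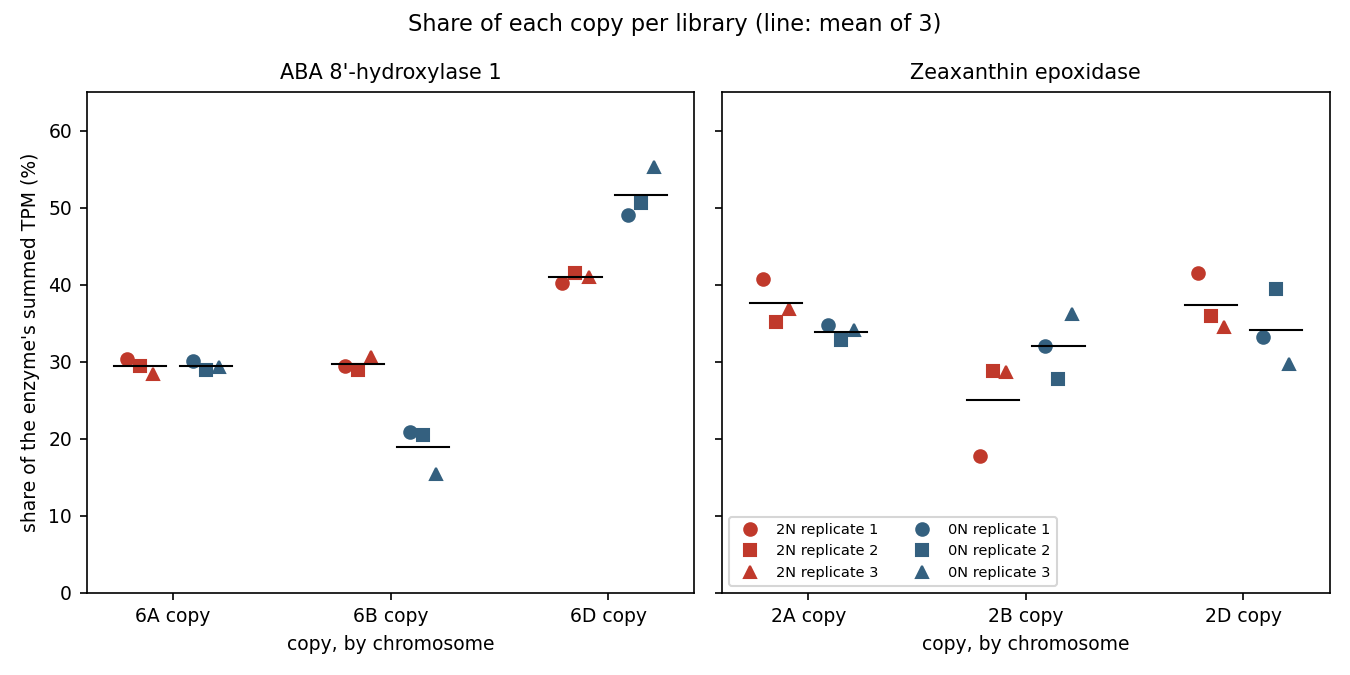
Share of each copy in the summed TPM of its enzyme (y axis, percent) in 2N (red) and 0N (blue) libraries, with the mean as a line (n = 3). The 6B hydroxylase copy lies near 30% in 2N and between 15.4% and 20.9% in 0N, while the zeaxanthin epoxidase shares overlap between the groups for the 2B and 2D copies.

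The annotated genes outside the set whose course over the 6 libraries was most like that of the 6D hydroxylase copy were a formin-like gene and a pair of copies of a plastid sugar enzyme. Likeness was the root mean square difference of log2 CPM centred on each gene's mean, over 25422 annotated genes with at least 5 CPM. It was 0.09 for TraesCS2B02G519600, similar to formin-like protein 3, and 0.11 for each of TraesCS5B02G244300 and TraesCS5A02G247200, similar to plastid glucose-6-phosphate isomerase 1. The 6A copy stood at 0.18, with 26 such genes nearer, and the 6B copy at 0.53, with 831 nearer.

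Zeaxanthin epoxidase was lower in 2N in all 3 copies, by less than the hydroxylase was higher. TraesCS2B02G335400 on 2B had 2.88, 5.19 and 4.83 CPM in 2N replicates 1 to 3, against 8.26, 7.17 and 9.09 CPM in 0N. TraesCS2A02G317000 on 2A had 6.60, 6.32 and 6.21 CPM in 2N, against 8.93, 8.42 and 8.51 CPM in 0N. TraesCS2D02G314900 on 2D had 7.22, 6.93 and 6.25 CPM in 2N, against 9.15, 10.9 and 7.95 CPM in 0N. The groups did not overlap in any of the 3 copies, and 2N replicate 1 was the lowest library of the 2B copy. In that library the 2A and 2D copies had their highest 2N values. All 18 counts of these copies were fractions, yet their sum lay within 0.02 of a whole number in each library. A division of reads among the copies can move the level of each copy, and its part in the falls of single copies was not tested. The 2B copy fell by 0.93 ± 0.19 on the log2 scale (edgeR adjusted p = 0.0045), and its call held under every alternative run (adjusted p 0.00023 to 0.022). The 2A copy fell by 0.43 ± 0.12 (adjusted p = 0.025) and the 2D copy by 0.46 ± 0.14 (adjusted p = 0.040). Neither of these calls held with DESeq2 (adjusted p 0.12 and 0.11), by which 5.93% of all genes rose and 6.31% fell. That of the 2A copy was also lost without 0N replicate 1 (adjusted p = 0.082) and without 2N replicates 1 (0.059), 2 (0.055) or 3 (0.094). That of the 2D copy was also lost without 0N replicates 1 (0.087) or 2 (0.14) and without 2N replicates 1 (0.069), 2 (0.064) or 3 (0.16).

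The summed zeaxanthin epoxidase level was lower in 2N without overlap. It was 16.7, 18.4 and 17.3 CPM in 2N and 26.3, 26.5 and 25.6 CPM in 0N, a ratio of means of 0.669. The leaf photosynthesis genes, which also act in plastids, were lower in 2N too, at 148, 289 and 218 TPM in 2N replicates 1 to 3 and 410, 291 and 646 TPM in 0N. In the same unit the epoxidase sum was 6.97, 7.81 and 7.22 TPM in 2N and 12.3, 11.5 and 11.7 TPM in 0N. The part of leaf-type transcripts in the fall of the epoxidase was not tested. The course of the 2D copy was matched most closely by TraesCS1A02G191800, TraesCS2B02G118000 and TraesCS5A02G480500, similar to a mitochondrial carnitine carrier, to cyclic dof factor 2 and to a dolichyl-phosphate glucosyltransferase (root mean square difference 0.04, 0.04 and 0.06). Of these only TraesCS1A02G191800 passed the test (edgeR adjusted p = 0.017, 0.069 and 0.11). The 2A copy stood at 0.14, with 396 of the 25422 annotated genes nearer, and the 2B copy at 0.45, with 21950 nearer.

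The NCED genes were rare in these roots. The 10 copies with at least 15 counts averaged 0.088 to 0.53 TPM each, against 31.3 to 49.2 TPM for the hydroxylase copies and 2.82 to 3.38 TPM for the epoxidase copies. The most abundant of them, the NCED1-like TraesCS6D02G251700, lay above only 5.74% of all tested genes. At such levels a copy gave 44.3 counts or fewer in a library, and counting error is a large part of its spread.

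The NCED3-like copies were each lower in 2N on average, but all except TraesCS5B02G375900 reached the count minimum through 0N. For those copies the direction was partly set by the choice of genes, and nothing is read from it. In rice, whose gene gives the name, NCED3 is a dioxygenase of this synthesis step. TraesCS5B02G375900 on 5B had 8, 2 and 6 counts in 2N replicates 1 to 3, against 14, 15 and 16 in 0N. TraesCS5D02G383500 on 5D had 3, 3 and 1 counts in 2N, against 7, 12 and 17 in 0N. TraesCS5D02G038800, also on 5D, had 0, 1 and 0 counts in 2N, against 5.47, 5 and 9.99 in 0N. The libraries of the groups did not overlap for these genes, nor for TraesCS5A02G374000 with 4, 5 and 3 counts in 2N and 7, 6 and 8 in 0N. They did overlap for TraesCS5B02G029300 with 4, 0 and 2 counts in 2N and 6.53, 3 and 6.01 in 0N. Among all genes with at least 15 counts, 15.5% had no overlap with 2N lower. A count of 0 in a library allows up to 0.18 CPM, and such limits cover counting error only.

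Of the 5 NCED3-like copies only TraesCS5B02G375900 passed the filter, and it fell by 1.47 ± 0.43 on the log2 scale (edgeR adjusted p = 0.032). This call was lost with DESeq2 (0.12), without any 0N library (0.074 to 0.081) and without 2N replicate 2 (0.11) or 3 (0.081). In a fit with no filter, in which 5.92% of 78172 genes rose and 5.99% fell, 3 of the 5 fell. These were TraesCS5B02G375900 (adjusted p = 0.024), TraesCS5D02G383500, which fell by 2.29 ± 0.58 (adjusted p = 0.0043), and TraesCS5D02G038800 (adjusted p = 0.0046). In fits with the filter, TraesCS5D02G383500 was tested in 4 of the 6 fits that left out a library, and it missed the threshold in the fit without 2N replicate 3 (adjusted p = 0.059), which differs from the fit above in the filter as well as the library. The counts of TraesCS5D02G038800 gave a ratio of 0.050 of 2N to 0N with an exact 95% counting interval of 0.0012 to 0.31. The interval takes no account of how the gene entered the set. TraesCS5D02G383500 and TraesCS5D02G038800 reached the count minimum through 0N, so nothing is read from their p-values or from the 3 of 5. Over the 5 copies the sum was 19, 11 and 12 counts in 2N and 40, 41 and 57 counts in 0N. That is 0.836 ± 0.268 CPM in 2N and 2.73 ± 0.53 CPM in 0N. The sum includes the copies that reached the minimum through 0N, so nothing is read from its direction.

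The NCED1-like copies showed no common direction. TraesCS6B02G298800 on 6B had 10, 13.0 and 6 counts in 2N and 16.1, 13 and 32.3 in 0N, and its log2 fold change of -1.06 ± 0.41 did not pass (edgeR adjusted p = 0.098; range over the alternatives 0.057 to 0.42). TraesCS6B02G298700, with the next lower identifier number, had 16.9, 12.3 and 17.2 counts in 2N and 14.2, 9.33 and 11.1 in 0N, a log2 fold change of 0.44 ± 0.34 (adjusted p = 0.45). TraesCS6A02G271600 stood at -0.30 ± 0.32 and TraesCS6D02G251700 at 0.05 ± 0.22 (adjusted p = 0.62 and 0.91). The value of the last changed sign under library totals, to -0.04. TraesCS6D02G251800 had 5, 5.35 and 2.24 counts in 2N and 5.57, 1 and 4.15 in 0N and was not tested. The summed NCED1-like level was 5.40, 5.45 and 3.79 CPM in 2N and 5.55, 4.40 and 6.31 CPM in 0N, with overlapping libraries. Unlike those of the other enzymes, the summed NCED1-like counts were not whole in any library. The 6B pair differed in length as used by the authors, with 28.5 counts per TPM for TraesCS6B02G298800 and 62.9 for TraesCS6B02G298700, and the 6D pair had 65.8 and 28.1.

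**Figure D3:**
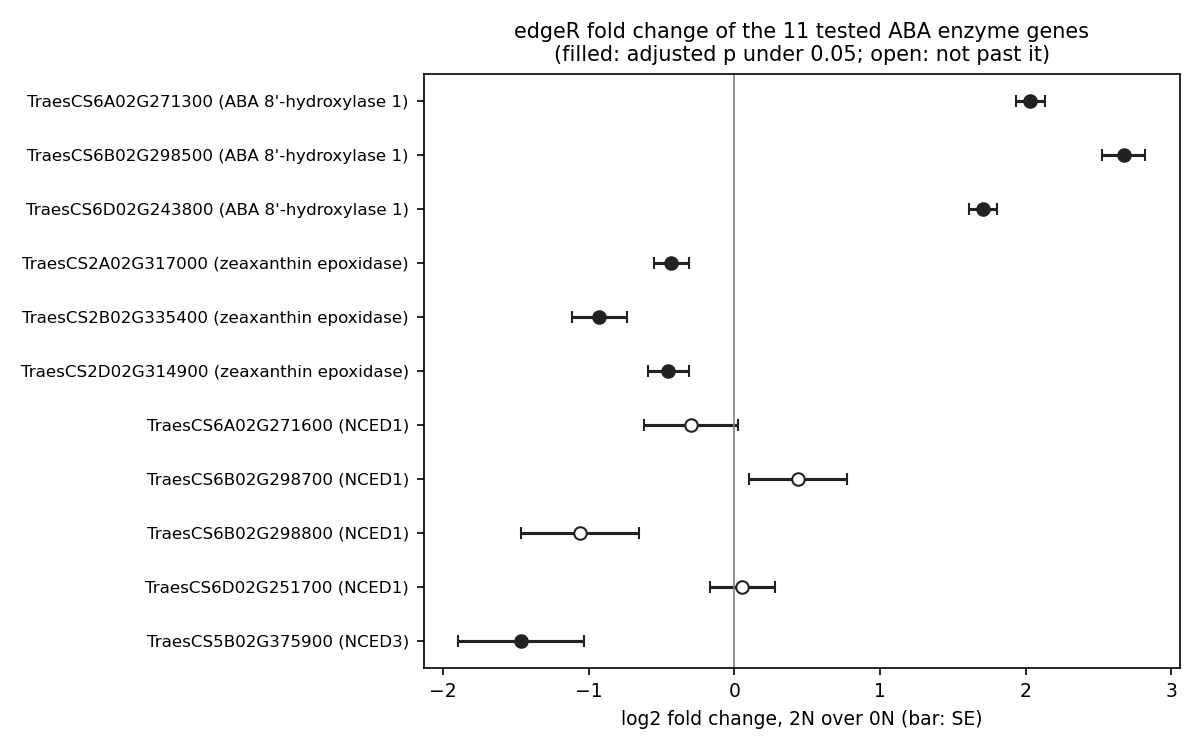
Log2 fold change of 2N over 0N (x axis) with its SE for the 11 tested genes, filled where the edgeR adjusted p was under 0.05. The 3 hydroxylase genes lie between 1.71 and 2.68, the 3 epoxidase genes between -0.93 and -0.43, and the NCED-like genes between -1.47 and 0.44 with 1 of 5 past the threshold.

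Set against each other within a library, hydroxylase transcripts exceeded epoxidase transcripts more in 2N. The summed hydroxylase TPM was 24.0, 24.7 and 25.2 times the summed epoxidase TPM in 2N replicates 1 to 3, and 4.17, 4.10 and 3.75 times in 0N. It was 70.7, 86.8 and 118 times the summed NCED TPM in 2N and 14.9, 16.55 and 9.76 times in 0N. The libraries of the groups lie apart in both ratios, a separation that follows from the falls and rises given above. The NCED sum includes the NCED3-like copies that reached the count minimum through 0N, so nothing is read from the ratio to NCED.

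The 7 genes named by the rule that missed the count minimum were nearly silent. All 3 genes similar to NCED4, all 3 similar to ABA 8'-hydroxylase 3 and 1 NCED3-like gene were among them, and 5 of the 7 had 0 counts in every library, which allows up to 0.030 CPM over the 6 libraries. The other two were TraesCS2B02G268400, similar to NCED4, with 2 counts in all, and TraesCS5D02G244900, similar to ABA 8'-hydroxylase 3, with 1. Just inside the minimum stood TraesCS5D02G038800 and TraesCS5B02G029300 with 21.5 counts each and TraesCS6D02G251800 with 23.3. The silent genes with 0 counts were TraesCS5A02G238000 and TraesCS5B02G236500, similar to the hydroxylase, TraesCS2A02G250600 and TraesCS2D02G251600, similar to NCED4, and TraesCS5B02G029400, similar to NCED3.

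In the lists of genes around these steps of synthesis, each gene that passed the test fell in 2N. In the supply of carotenoids 8 of 32 tested genes fell and 0 rose, against 7.93% and 7.57% of all tested genes, with a median log2 fold change of -0.22. All 3 genes similar to phytoene synthase 3 and 2 of 3 similar to phytoene synthase 2 were among them. These enzymes commit carbon to carotenoids, and 0 of 2 genes similar to phytoene synthase 1 passed. TraesCS2D02G279300, similar to violaxanthin de-epoxidase, also fell, just inside the threshold (edgeR adjusted p = 0.04999). That enzyme works against zeaxanthin epoxidase, so its fall is not a fall in a step of synthesis. TraesCS5D02G365100, similar to phytoene synthase 3, had 2.94, 2.27 and 2.72 CPM in 2N, against 6.66, 7.72 and 8.16 CPM in 0N, and fell by 1.51 ± 0.16 (edgeR adjusted p = 1.9e-05). TraesCS2A02G396200, similar to beta-carotene 3-hydroxylase, which makes zeaxanthin, fell by 1.43 ± 0.18 (adjusted p = 6.6e-05). In all 2 of 5 tested genes similar to beta-carotene 3-hydroxylase fell, and 0 of 3 similar to carotene epsilon-monooxygenase passed. The count for carotenoid supply was 5 with DESeq2 and 5 without 0N replicates 1 or 3 or without 2N replicate 1. Between phytoene and the carotenes lie desaturation, isomerisation and cyclisation, and 0 of 14 tested genes of these steps passed by edgeR (0 also by DESeq2, and 0 at an unadjusted p under 0.05 by either tool).

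Genes listed for the last step of ABA synthesis showed the same direction where they passed the test, and 14 of 24 did not pass. None of the tested genes was named an abscisic-aldehyde oxidase. Of 24 tested genes of the list of aldehyde oxidases and their molybdenum cofactor sulfurase 10 fell and 0 rose, against 7.93% and 7.57% of all tested genes, with a median of -0.30. All 3 molybdenum cofactor sulfurase genes fell, whose product activates aldehyde oxidase, and 7 of 21 genes similar to a maize indole-3-acetaldehyde oxidase, whose family acts on several aldehydes. TraesCS5D02G436200 had 33.8, 38.8 and 35.3 CPM in 2N, against 77.6, 80.8 and 91.9 CPM in 0N, and fell by 1.21 ± 0.10 (edgeR adjusted p = 1.6e-06), and TraesCS5D02G436000 fell by 1.49 ± 0.15 (adjusted p = 3.4e-05). Other carotenoid cleavage dioxygenases, relatives of NCED that do not make ABA, had 4 falls and 0 rises among 12 tested genes (7.93% and 7.57% of all tested genes), and 2 falls without 0N replicate 3. TraesCS5D02G001900 and TraesCS5B02G002600, similar to a dioxygenase that cuts carotenoids at the 9,10 bonds, fell by 0.48 ± 0.10 and 0.41 ± 0.10 (adjusted p = 0.0037 and 0.010). The median log2 fold change of the 12 genes was -0.26.

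Few genes of ABA transport were tested. Of 6 tested genes similar to the ABA exporter ABCG25, 2 fell and 0 rose, against 7.93% and 7.57% of all tested genes, a list too short to read a share from. They were TraesCS1A02G141400, which fell by 0.74 ± 0.17 and TraesCS1D02G140400, which fell by 0.51 ± 0.15 (edgeR adjusted p = 0.0073 and 0.033). The count was 1 with limma on TPM and without 0N replicates 1 or 3 or 2N replicates 2 or 3. No gene matched the ABA glucosyltransferase by name.

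In ABA perception and signalling, 7 of 15 receptor genes rose and 0 fell, against 7.57% and 7.93% of all tested genes. All 7 were among the 11 PYL4-like genes, and 0 of the 4 PYL5-like genes passed. The rises of lowest p were those of TraesCS1D02G293600 and TraesCS1A02G297600, with log2 fold changes of 1.49 ± 0.11 and 1.67 ± 0.14 (edgeR adjusted p = 7.1e-07 and 2.6e-06). Of 16 tested genes of clade A protein phosphatases, which the receptors inhibit, 8 fell and 0 rose (7.93% and 7.57% of all tested genes), among them TraesCS3B02G394600 by 0.99 ± 0.13 and TraesCS3A02G362200 by 1.02 ± 0.15, and 4 fell without 0N replicate 1. Of 26 SnRK2 kinase genes 3 fell, TraesCS2A02G163800 by 0.47 ± 0.11 and TraesCS4D02G078100 by 0.91 ± 0.21 among them, and 8 fell under library totals. The share of 3 in 26 is near the 7.93% of all tested genes that fell and is no result about these kinases. Of 28 genes of ABA-response bZIP factors 5 fell, against 7.93% of all tested genes, TraesCS7A02G170600 by 0.62 ± 0.13 and TraesCS7D02G171300 by 0.60 ± 0.13 among them, 8 under library totals and 3 without 2N replicate 1.

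**Figure D4:**
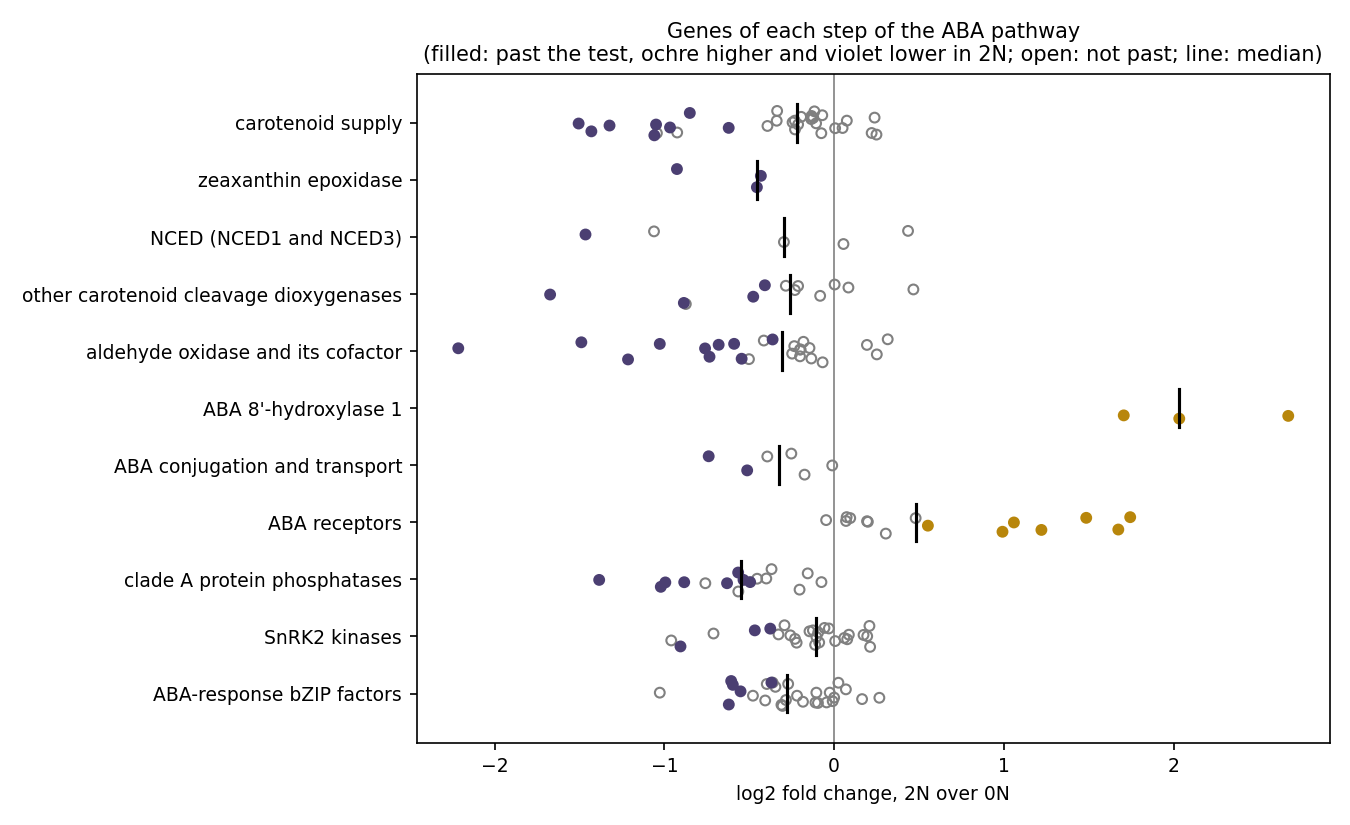
Log2 fold change of 2N over 0N (x axis) of each tested gene at each step of the ABA pathway, filled where the edgeR adjusted p was under 0.05 (ochre higher, violet lower in 2N), with the median of each step as a line. Filled points to the right of 0 appear only in the rows of ABA 8'-hydroxylase 1 (3 of 3 genes) and of the ABA receptors (7 of 15).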

How the data were processed

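Root poly(A) RNA was sequenced in 6 libraries. HISAT and Bowtie2 are named per the submitters' processing notes. Which genome build, annotation and counter were used is not given in the sources used here. Per gene, the authors deposited estimated counts (expected counts, 45.1% not whole, tolerance 1e-06) and TPM values scaled to 1 total per library, per the file headers. 12 other columns of per-sample values were not used. The reference table of 155467 wheat genes matched 0 identifiers, so no coordinates or sequences are given.

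Expected counts were rounded, filtered with filterByExpr (minimum count 10, minimum total 15), scaled by TMM and tested with edgeR's quasi-likelihood test, 2N over 0N, p-values being adjusted over every tested gene (Benjamini-Hochberg). Standard errors were back-calculated from the F statistic and are approximate. CPM values use TMM-scaled library sizes and unrounded counts. Copy ratios added 0.5 counts and needed a mean of at least 10 counts. The members and lists were chosen with earlier results of these data known. Every member was named, with the 2 genes of lowest p among those that passed in each other list, the most abundant tested gene of each tissue marker list, and the 3 genes most alike in course to the most abundant hydroxylase and epoxidase copies. The most abundant tested root, leaf and endosperm marker genes were TraesCS6D02G193200 (a nitrate transporter partner, 1049 TPM in 2N and 106 TPM in 0N), TraesCS5D02G169900 (Rubisco small chain, 16.3 TPM in 2N and 31.9 TPM in 0N) and TraesCS6B02G305300 (gamma-gliadin, 5.23 TPM in 2N and 6.75 TPM in 0N). Of the 44 tested root markers 29 rose and 2 fell, against 7.57% and 7.93% of all tested genes. With nitrate transporters left out, 4 of 14 tested root markers rose and 1 fell. Of the 4 tested endosperm markers 0 passed by edgeR or DESeq2, and 0 had an unadjusted p under 0.05. The root list was also summed without nitrate transporters, a choice made after seeing the data. The fit was also run on simulated data with 200 changed genes, each with a higher mean count than any NCED3-like gene. The outcome of that run is not given here, and it does not cover genes with counts that low. The tools were DESeq2 1.42.0, scipy 1.17.1, edgeR 4.0.16, matplotlib 3.10.9, limma 3.58.1 and R 4.3.3.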

Additional observations from a re-analysis of the deposited data

How the results depend on the processing

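The 3 hydroxylase rises and the fall of the 2B epoxidase held under all 14 alternatives. The count of changed ABA enzymes, 7, was 4 with DESeq2, 5 with a replicate block (TraesCS2A02G317000 and TraesCS5B02G375900 did not pass, adjusted p = 0.052 and 0.054), 9 without a filter and 4 to 6 without a library, lowest without 2N replicate 3. All 5704 to 9307 changed genes over the alternatives compare with 8415, with 7299 under the replicate block, and limma on TPM gave 2465 to 2502 rises and 5415 to 5538 falls. Correlations of same-numbered libraries' deviations were -0.0052, -0.11 and 0.026, so the numbers were not taken as pairs, and 1 of 3 2N libraries correlated best with its own number. Library totals moved the median log2 fold change of all genes by -0.095. The log2 ratio of the summed epoxidase level, -0.58, was -0.67 with library totals and -0.69 with TPM, and that of all NCED genes, -0.51, was -0.82 with TPM and -0.30 with tested copies alone. TraesCS6D02G251700 was at -0.040, -0.066 and -0.024 with library totals and TPM plus 0.1 or 1, and between -0.10 and 0.19 without a library. The 2A to 2D epoxidase ratio difference, 0.01, lay between -0.12 and 0.11 without a library. Carotenoid supply gave 5 changed genes with DESeq2 and 5 to 7 without a library, other cleavage dioxygenases 2 to 5, phosphatases 4 to 9, and bZIP factors 8 with library totals and 3 to 5 without a library. SnRK2 kinases gave 8 with library totals, 6 with limma on TPM and 5 with no filter or a stricter one. ABA transport gave 1 with limma on TPM and 1 to 2 without a library. Lists without glyoxal oxidases and ABCG22, a choice made after seeing the data, gave the same counts. Low counts limit the NCED results, and the calls gained without a filter were of NCED3-like copies that reached the count minimum through 0N.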

Other observations

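By identifier number, which in this naming runs along a chromosome in steps, the hydroxylase copies lie beside NCED1-like genes on 6A and 6B. The step count is 3 on 6A, and 2 and 3 on 6B, but 79 and 80 on 6D. On 6A and 6B the numbers rise through genes similar to Rop guanine nucleotide exchange factor 14, syntaxin-22, MODIFYING WALL LIGNIN-1 and a methyltransferase to the hydroxylase. On 6D the same neighbours follow the hydroxylase in the opposite order. Of the 18 tested genes within 5 steps of a hydroxylase copy, NCED1-like genes left out, 4 rose and 0 fell by edgeR's test, against 7.57% and 7.93% of all tested genes, with log2 fold changes of -1.13 to 0.89, all smaller in size than those of the hydroxylases. The syntaxin-22-like gene had log2 fold changes of 0.50 ± 0.12 on 6A, 0.50 ± 0.18 on 6B and 0.41 ± 0.13 on 6D (adjusted p = 0.012, 0.073 and 0.040). Identifier order is not a measured distance, and no explanation was tested.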
